A study of Mus musculus with 6 samples.

Results

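The noncoding transcripts described here are 6 features that the array's design names AF315352, C230091D08Rik, AK040434, D7Ertd715e, A230057D06Rik and A330076H08Rik. By name and position they are unnamed or RIKEN transcripts on mouse chromosome 7 between Ube3a and the gene Ndn. They are not all such transcripts there, since others in that stretch were too dim to be tested and are not among the 6. The choice was made with earlier results of these data known. All 6 were among the 19203 genes or unnamed features tested on the array. RNA came from epididymal white adipose tissue, a fat depot beside the testis, of 3 patDp/+ mice and 3 wild type mice, with 1 one-colour array for each animal. All 6 animals were male, 9 to 10 weeks old and of C57BL/6 background, and no other allele or treatment is labelled. In the patDp/+ mice a segment of chromosome 7 corresponding to human 15q11-13 is duplicated on the chromosome from the father, so they hold 3 copies of it, 1 maternal and 2 paternal, and wild type mice hold 2. The segment is treated here as running from Herc2 to Mkrn3. The groups follow the sample titles and the genotype label, because the source name of every sample reads wild type and replicate 1.

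The region is imprinted, so that several of its genes are read from one parental chromosome only. Snrpn, Snurf, Ndn and Mkrn3 are expressed from the paternal copy, and a long noncoding RNA named Snhg14 starts near Snrpn and also runs from the paternal copy. In neurons Snhg14 extends across Ube3a in antisense and is known for silencing paternal Ube3a, while in most other tissues Ube3a is read from both copies. Snhg14 is the host of clustered small nucleolar RNAs and includes Ipw.

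The part of each transcript that was measured is the 60-base probe, and the probes with a signal are printed because every value below rests on them. The probes of AF315352, C230091D08Rik and AK040434 lie just past the last probe of Ube3a and on its strand (plus). AF315352 was read at chr7:66562731-66562790, C230091D08Rik at chr7:66566429-66566488 and AK040434 at chr7:66576861-66576920, at 1.4, 5.1 and 15.5 kb from the last Ube3a probe (coordinates of build mm9 from the scanner files).
AF315352: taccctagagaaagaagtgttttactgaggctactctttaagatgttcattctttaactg
C230091D08Rik: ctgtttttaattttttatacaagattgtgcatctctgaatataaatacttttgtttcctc
AK040434: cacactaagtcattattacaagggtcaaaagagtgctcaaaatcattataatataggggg

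The probes of the other 3 transcripts lie on the minus strand, as does Snrpn. D7Ertd715e was read at chr7:67114478-67114537, 553 kb from Ube3a and 12.9 kb from the probe of Snurf. A230057D06Rik was read at chr7:68850886-68850945, 0.643 Mb from the probe of Ndn, and A330076H08Rik at chr7:69075887-69075946, 0.418 Mb from it.
D7Ertd715e: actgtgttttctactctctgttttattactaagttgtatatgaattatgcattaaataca
A230057D06Rik: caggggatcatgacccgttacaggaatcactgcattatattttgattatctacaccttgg
A330076H08Rik: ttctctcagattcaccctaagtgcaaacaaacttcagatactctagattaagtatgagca

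No other probe of the array shared a run of 20 bases with any of these sequences. The strand was read from the order in which the scanner files write the 2 ends of a probe, an order that matched the annotated strand of the gene for 99.37% of the 24638 probes with a known gene. The noncoding label holds unevenly. The scanner files describe D7Ertd715e and A230057D06Rik as noncoding RNA, and the probes of C230091D08Rik, AK040434 and A330076H08Rik as unclassifiable cDNA clones. They describe AF315352 as the complete coding sequence of a leucine zipper protein named Thg-1pit. RefSeq (GRCm38.p6) matched 4 of the 6 names, all as long noncoding RNA. It lists both D7Ertd715e and C230091D08Rik as other names of Snhg14, yet Snhg14 is annotated on the minus strand and the C230091D08Rik probe reads the plus strand. In that annotation Ube3a and Snhg14 overlap over 38.1 kb, and 206 small nucleolar RNA genes lie between the ends of Snhg14. The place of each probe within an exon, intron or UTR was not analysed here.

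All 6 transcripts were higher in patDp/+ fat, by 0.44 to 1.21 on the log2 scale, with a median difference of 0.70 against -0.01 over all features tested. A230057D06Rik, at the upper end, was well above background on 3 patDp/+ arrays and 1 wild type array. Its patDp/+ arrays thus brought it past the signal filter. The 5 transcripts well above background on all 6 arrays ran from 0.44 to 0.97, with a median of 0.52. At an unadjusted p under 0.05, 5 of the 6 were higher, a level that 2.68% of all features reached in this direction (2.92% were lower). The same 5 had 3 patDp/+ values above all 3 wild type values, which held for 5.23% of all features (5.87% in the opposite direction). After Benjamini-Hochberg adjustment over all features limma called none of the 6, and none of the 19203, so no difference given here passes a test that allows for the size of the array. At an unadjusted p under 0.05, 515 features were higher and 560 lower. In a whole tissue, a change in the number of cells that make a transcript and a change in RNA per cell cannot be told apart.

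**Figure D1:**
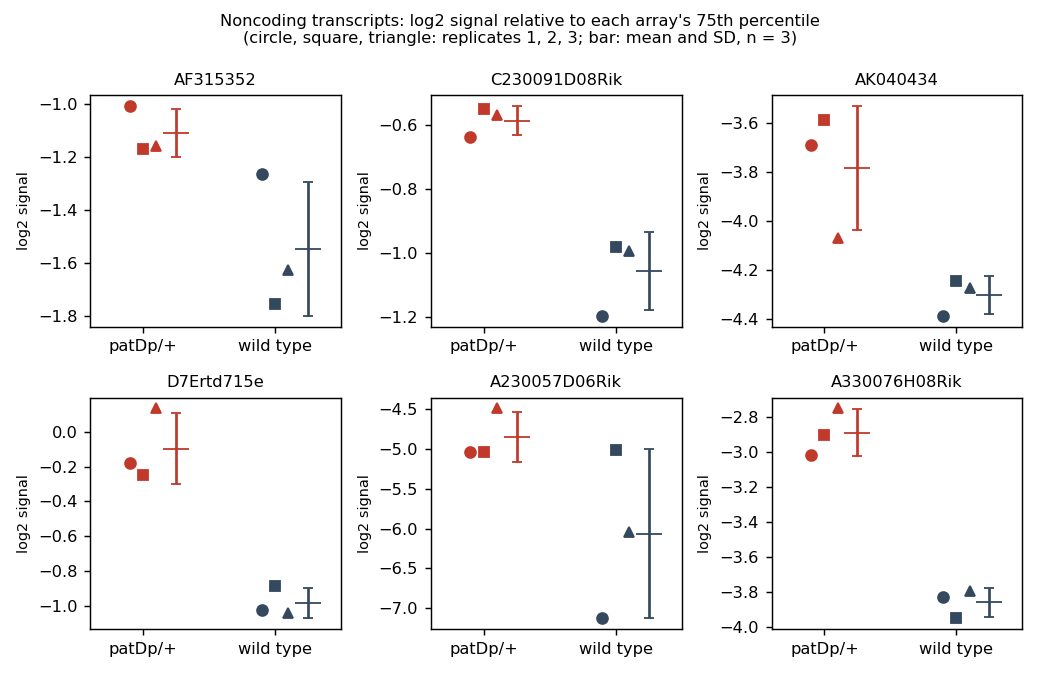
Log2 signal of each noncoding transcript relative to the 75th percentile of its array, for 3 patDp/+ and 3 wild type arrays, with each panel on an axis of its own. Points are single arrays and bars the mean and SD (n = 3). The groups overlap only for A230057D06Rik, where wild type replicate 2 at -5.02 lies above 2 patDp/+ arrays.

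The transcripts beside Ube3a differed by similar amounts. Values are log2 signals relative to the 75th percentile of each array, so that a negative value is a signal below that level. C230091D08Rik had -0.64, -0.55 and -0.57 in patDp/+ replicates 1 to 3, against -1.20, -0.98 and -0.99 in wild type replicates 1 to 3. All 3 patDp/+ values lay close together and above all 3 wild type values. The difference was 0.47 ± 0.09 (limma standard error), or 1.39-fold, with an unadjusted p of 0.00162 and an adjusted p of 0.740.

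AF315352 had -1.01, -1.17 and -1.16 in patDp/+ fat, against -1.27, -1.75 and -1.62 in wild type fat. The groups did not overlap, but wild type replicate 1 lay closest to the patDp/+ mice. The difference was 0.44 ± 0.14, or 1.35-fold, with an unadjusted p of 0.0201 and an adjusted p of 0.871 in limma. This p depends on single animals, since without patDp/+ replicate 1, wild type replicate 2 or wild type replicate 3 the unadjusted p was 0.0629, 0.0582 and 0.0626.

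AK040434 was dimmer, with -3.69, -3.59 and -4.07 in patDp/+ fat, against -4.39, -4.25 and -4.27 in wild type fat. Replicate 3 was the lowest of the patDp/+ mice and still above every wild type mouse. The difference was 0.52 ± 0.14, or 1.43-fold, with an unadjusted p of 0.00928 and an adjusted p of 0.871 in limma. In the authors' deposited value table it was 0.17, with an unadjusted p of 0.0555.

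The transcripts of the minus strand differed by more. D7Ertd715e, the name on the array for a part of Snhg14 past Snurf in the direction of transcription, had -0.18, -0.25 and 0.14 in patDp/+ fat, against -1.03, -0.89 and -1.04 in wild type fat. Every patDp/+ mouse was well above every wild type mouse, with replicate 3 the highest. The difference was 0.89 ± 0.12, or 1.85-fold, with an unadjusted p of 0.000296 and an adjusted p of 0.381 in limma.

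A330076H08Rik, which RefSeq also lists as Mirh1, had -3.01, -2.90 and -2.75 in patDp/+ fat, against -3.83, -3.95 and -3.79 in wild type fat. The spread within each group was small beside the gap between them. The difference was 0.97 ± 0.10, or 1.96-fold, with an unadjusted p of 5.19e-05, and its adjusted p of 0.346 was the lowest among the 6 transcripts. In the authors' deposited value table the difference was 0.50. Its second probe, at chr7:69089417-69089476, was not well above background on any array.

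A230057D06Rik had the least certain difference. Its probe read -5.04, -5.04 and -4.49 in patDp/+ fat, against -7.13, -5.02 and -6.05 in wild type fat, and was well above background on all 3 patDp/+ arrays and on 1 of the 3 wild type arrays (replicate 2). The difference was 1.21 ± 0.52, with an unadjusted p of 0.0569 and an adjusted p of 0.876 in limma, and no fold is given because 2 wild type arrays were not well above background. Its patDp/+ arrays brought the probe past the signal filter, so this difference and its p are not a fair test. Single wild type mice moved the difference either way, to 1.73 without replicate 2 (unadjusted p 0.00474) and to 0.68 without replicate 1. In the authors' deposited value table it was 0.21. The transcript has 2 further probes, at chr7:69008178-69008237 and chr7:69070923-69070982, and neither was well above background on any array, so a single probe carries the value.

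Arrays with the same replicate number shared a slide and a scan, per the file headers, so that each slide held 1 patDp/+ and 1 wild type array. Within slides 1, 2 and 3, the difference was 0.26, 0.58 and 0.47 for AF315352, 0.56, 0.43 and 0.43 for C230091D08Rik, and 0.70, 0.66 and 0.20 for AK040434. It was 0.85, 0.64 and 1.18 for D7Ertd715e and 0.81, 1.05 and 1.05 for A330076H08Rik. These 5 transcripts were therefore higher in patDp/+ fat on each of the 3 slides. A230057D06Rik gave 2.09, -0.02 and 1.56, so the 2 arrays of slide 2 were nearly equal.

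**Figure D2:**
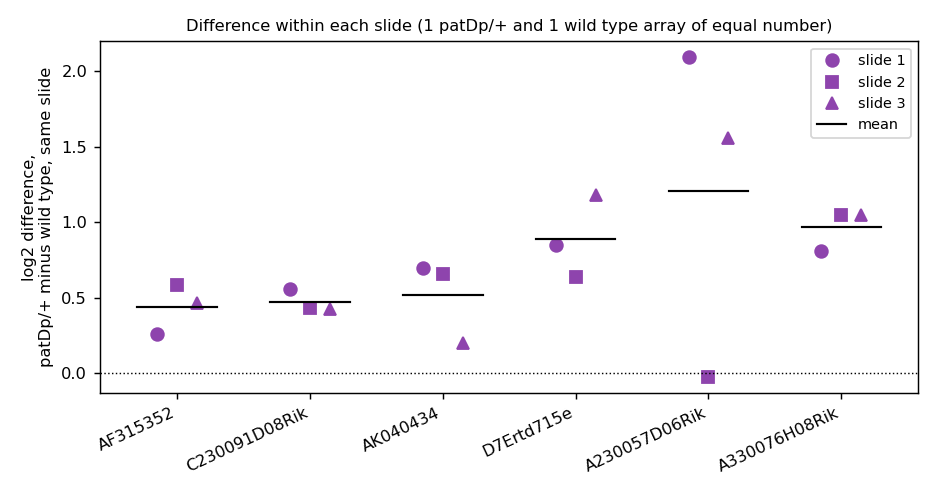
Log2 difference, patDp/+ minus wild type, within each of the 3 slides for the 6 noncoding transcripts, with a line at the mean of the 3. Only slide 2 of A230057D06Rik lies below 0, at -0.02.

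Position and strand divided the 6 transcripts in the same way, so their parts cannot be told apart. Among neighbouring genes, the probes of both Ube3a (0.50) and Ndn (1.08) lie on the plus strand. The 3 plus-strand transcripts beside Ube3a ran from 0.44 to 0.52, with a median of 0.47. Of the minus-strand transcripts, D7Ertd715e gave 0.89 and A330076H08Rik 0.97. A230057D06Rik gave 1.21, with a 95% interval of -0.05 to 2.47 that held 0. Per array, the mean of D7Ertd715e and A330076H08Rik minus the mean of the 3 transcripts beside Ube3a differed by 0.45 ± 0.15 between patDp/+ and wild type mice (95% interval 0.04 to 0.86), and by 0.32, 0.29 and 0.75 on the 3 slides. A230057D06Rik was left out of that mean because its probe was not well above background on 2 wild type arrays. In order along the chromosome, the 5 transcripts well above background on all 6 arrays differed by 0.44, 0.47, 0.52, 0.89 and 0.97. This order describes 1 set of 6 arrays.

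The extra copy sets simple expectations for dose. A transcript read from both parental copies would be measured at 3 doses in patDp/+ mice against 2 in wild type mice, a ratio of 1.5 or a log2 difference of 0.58, and one read from the paternal copy alone at a ratio of 2 or a log2 difference of 1. The 95% interval of the difference was 0.10 to 0.78 for AF315352, 0.26 to 0.69 for C230091D08Rik and 0.18 to 0.86 for AK040434. Each of these held the ratio of 1.5 and left out the ratio of 2. The interval was 0.59 to 1.19 for D7Ertd715e and 0.73 to 1.21 for A330076H08Rik, and each held the ratio of 2 and left out 1.5. That of A230057D06Rik, -0.05 to 2.47, held both ratios and 0. Over the 16 other ways of processing, C230091D08Rik held the ratio of 1.5 in 16 and that of 2 in 0, AF315352 in 15 and 0, and AK040434 in 15 and 1. A330076H08Rik held the ratio of 2 in 15 of 16 and 1.5 in 2, whereas D7Ertd715e held the ratio of 2 in 16 and 1.5 in 9, so for D7Ertd715e the lower ratio is left out only under some settings. In the authors' deposited value table the interval of A330076H08Rik was 0.32 to 0.68, which held 1.5 and left out 2. There the intervals of AF315352 (0.10 to 0.576), AK040434 (-0.005 to 0.34) and A230057D06Rik (-0.05 to 0.46) lay below both ratios. The allele that each transcript was read from was not measured.

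**Figure D3:**
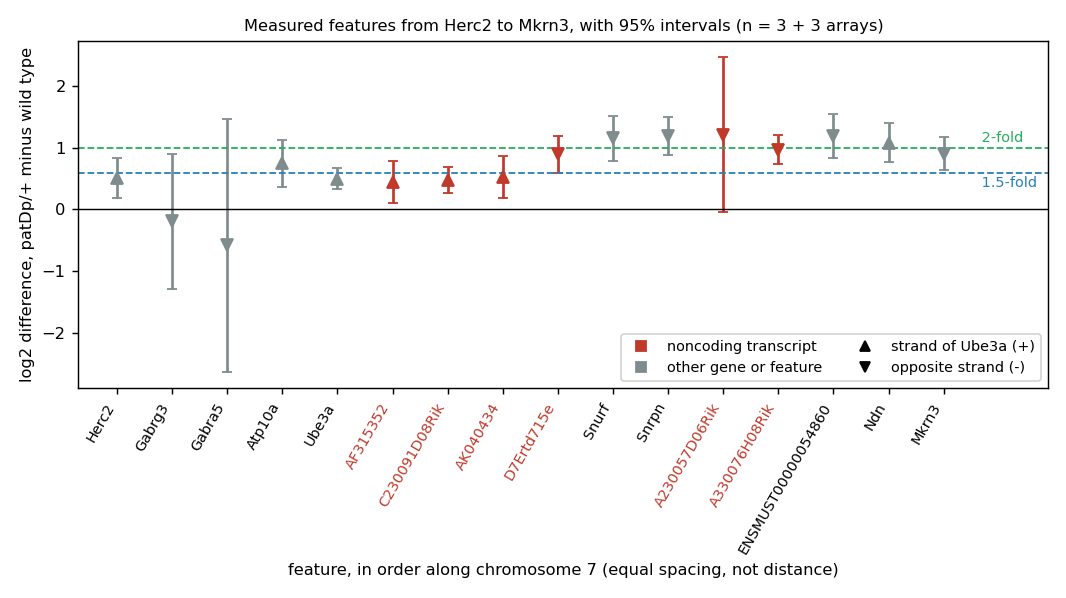
Log2 difference, patDp/+ minus wild type, with its 95% interval for the 16 measured features from Herc2 to Mkrn3 in chromosomal order (n = 3 and 3 arrays). The plus-strand noncoding transcripts lie at 0.44 to 0.52 beside Ube3a at 0.50, and D7Ertd715e and A330076H08Rik at 0.89 and 0.97 among Snrpn, Snurf, Ndn and Mkrn3 at 0.90 to 1.19. ENSMUST00000054860 entered only through its patDp/+ arrays, so its point and interval are not a test.

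Ube3a, a ubiquitin ligase, was the nearest named gene to the plus-strand transcripts. It had 3.03, 3.12 and 3.11 in patDp/+ fat, against 2.61, 2.56 and 2.59 in wild type fat, a difference of 0.50 ± 0.07. Relative to Ube3a on the same array, the difference of C230091D08Rik was smaller by 0.03 (-0.03 ± 0.08, 95% interval -0.26 to 0.21). AF315352 minus Ube3a gave -0.06 ± 0.15 and AK040434 minus Ube3a gave 0.02 ± 0.17. The 3 intervals, which reach from -0.49 to 0.49, all held 0. Those of AF315352 (-0.49 to 0.36) and AK040434 (-0.44 to 0.49) leave room for a true gap near that size, and that of C230091D08Rik only for a smaller one.

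Against Ube3a the minus-strand transcripts stood higher. The difference of A330076H08Rik exceeded that of Ube3a by 0.47 ± 0.07 (95% interval 0.28 to 0.66), and by 0.40, 0.49 and 0.52 on the 3 slides. D7Ertd715e exceeded it by 0.39 ± 0.13 (0.03 to 0.75), with 0.44, 0.08 and 0.66 on the slides. Both sets of patDp/+ values lay above all wild type values on this relative scale. For A230057D06Rik the excess was 0.71 ± 0.65, with an interval that held 0.

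The other neighbours were the paternally expressed genes. Snrpn, a splicing protein gene, had 0.43, 0.77 and 0.61 in patDp/+ fat, against -0.77, -0.48 and -0.51 in wild type fat, a difference of 1.19 ± 0.13. The difference of C230091D08Rik minus that of Snrpn was -0.72 ± 0.08 (95% interval -0.93 to -0.50), and that of AK040434 minus Snrpn was -0.67 ± 0.17 (-1.14 to -0.20). The value for AF315352 was -0.75 ± 0.28, with an interval of -1.53 to 0.02 that reached 0. For the minus-strand transcripts the gaps to Snrpn were smaller, at -0.30 ± 0.18 for D7Ertd715e and -0.22 ± 0.15 for A330076H08Rik, and their intervals held 0.

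Ndn, which encodes the growth regulator necdin, differed by 1.08 ± 0.13, and Mkrn3, a RING finger gene at the far end, by 0.90 ± 0.11. A330076H08Rik differed from them by -0.11 ± 0.19 and 0.06 ± 0.09. C230091D08Rik minus Ndn gave -0.61 ± 0.11 and AK040434 minus Ndn gave -0.56 ± 0.13, with intervals that left out 0. AF315352 minus Ndn gave -0.65 ± 0.25, with an interval of -1.34 to 0.05 that held 0. Within the 6, A330076H08Rik exceeded C230091D08Rik by 0.50 ± 0.12 (0.17 to 0.82) and AF315352 by 0.53 ± 0.18 (0.04 to 1.02), and D7Ertd715e exceeded C230091D08Rik by 0.42 ± 0.13 (0.05 to 0.79). The intervals of the 3 other pairs across the strands held 0, at 0.45 (-0.19 to 1.08) for A330076H08Rik minus AK040434, 0.45 (-0.18 to 1.09) for D7Ertd715e minus AF315352 and 0.37 (-0.38 to 1.12) for D7Ertd715e minus AK040434. A330076H08Rik and D7Ertd715e differed from each other by 0.08 ± 0.12. In all, 29 such gaps were computed and 11 had an interval that left out 0. The intervals use the spread of the 6 arrays within groups and are not adjusted for their number.

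Among the remaining named genes of the stretch, Herc2, a large ubiquitin ligase, differed by 0.51 ± 0.14 and Atp10a, a phospholipid transporter, by 0.75 ± 0.16. The unnamed feature ENSMUST00000054860, between A330076H08Rik and Ndn, was well above background on 3 patDp/+ arrays and 0 wild type arrays. It read -4.78, -5.10 and -4.99 in patDp/+ fat, against -5.89, -6.26 and -6.31 in wild type fat. This feature entered the measured features only through its patDp/+ arrays, so no fold or p is given for it. Of the 10 genes tested from the interval list, which includes Peg12 beyond Mkrn3, 7 were higher at an unadjusted p under 0.05. Over all features, 2.68% reached this level in that direction. The GABA receptor genes Gabrg3 and Gabra5 gave -0.20 ± 0.45 and -0.58 ± 0.84. Their signals were well above background on 2 and 1 patDp/+ arrays, against 3 and 2 wild type arrays. Outside the stretch, Peg12, a paternally expressed gene beyond Mkrn3, gave -0.24 ± 0.21. The next 4 measured genes on each side were all higher, by 0.04 to 0.25. None of these or Peg12 reached an unadjusted p under 0.05. For Mtmr10 (0.22 ± 0.09) and Mcee (0.20 ± 0.12), both beyond Mkrn3, all patDp/+ values lay above all wild type values, as for 5.23% of all features.

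Most of the other transcripts in the same 2.53 Mb were too dim in fat to be tested. That stretch holds 23 probes with 18 names, and 12 of the names are not among the 6 transcripts. Only Snrpn and Snurf of those 12 met the signal filter, which asks for 3 of the 6 arrays well above background. Ipw, a noncoding RNA transcribed as a part of Snhg14 between Ube3a and Snrpn, was not well above background on any array, with -8.00, -8.17 and -7.37 in patDp/+ fat, against -7.94, -8.03 and -7.96 in wild type fat. AK083530, whose probe at chr7:67123283-67123342 sits between those of D7Ertd715e and Snurf, was also not well above background on any array. It nevertheless read -5.90, -6.24 and -6.20 in patDp/+ fat, against -7.59, -7.47 and -7.21 in wild type fat. The groups did not overlap, and no fold is given because neither group was well above background. Ipw and AK083530 were not tested.

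RefSeq annotation adds what the minus-strand transcripts carry. Of 13 microRNA genes of the miR-344 family on chromosome 7, 7 lie inside the annotated span of A230057D06Rik and 1, Mir344g, overlaps the start of A330076H08Rik by 67 of its 71 hairpin bases. The microRNAs were not measured on this array. Their 5' arms are printed because the seed, bases 2 to 8 in capitals, sorts them into 2 groups. Of 7 names of 5' arms at these genes, 5 share the first seed shown and 2, miR-344e-5p and miR-344h-5p, have one and the same sequence with the other seed.
mmu-miR-344g-5p: aGUCAGGCuccuggcaggagu
mmu-miR-344-5p: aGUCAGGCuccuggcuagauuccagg
mmu-miR-344e-5p: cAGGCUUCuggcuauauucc

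The annotated promoters of the minus-strand transcripts with the clearest differences are shown for comparison, as 250 bases before and 50 after the start in RefSeq (GRCm38.p6, a later build than the probe coordinates). Snhg14, the RefSeq name of D7Ertd715e, starts on the minus strand within chr7:60450128-60450427, a start that it shares with an upstream form of Snrpn. Snrpn has other annotated starts nearer to the probe of D7Ertd715e, and which start is used in fat was not measured. The capitals mark the palindrome CGCATGCG, which reads the same on both strands.
Snhg14: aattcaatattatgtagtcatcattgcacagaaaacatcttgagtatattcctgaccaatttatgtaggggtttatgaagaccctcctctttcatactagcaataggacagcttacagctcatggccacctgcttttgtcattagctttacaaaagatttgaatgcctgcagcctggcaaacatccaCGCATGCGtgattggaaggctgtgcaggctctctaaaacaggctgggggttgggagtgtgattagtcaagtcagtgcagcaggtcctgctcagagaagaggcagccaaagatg
A330076H08Rik starts on the minus strand within chr7:61982306-61982605, and here the capitals mark the bases of miR-344g-5p.
A330076H08Rik: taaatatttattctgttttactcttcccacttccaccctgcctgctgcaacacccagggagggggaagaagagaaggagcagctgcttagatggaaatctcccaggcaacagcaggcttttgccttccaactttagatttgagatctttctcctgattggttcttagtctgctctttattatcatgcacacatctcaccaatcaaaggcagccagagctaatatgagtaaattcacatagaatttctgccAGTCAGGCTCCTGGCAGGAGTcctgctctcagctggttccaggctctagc

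The palindrome was looked for after these sequences had been read. It occurred once in the windows of Snhg14, Snurf and Ndn and in 1.86% of 32817 promoter windows of that length. Each annotated Snrpn window also held it, and the Snhg14 and Snurf windows are themselves among these, so the occurrences are not separate. It was not in the windows of A330076H08Rik, A230057D06Rik, Ipw or Ube3a. The windows of A330076H08Rik and A230057D06Rik held 0 CG dinucleotides, against 2 for Snhg14, 11 for Ndn, 29 for Ube3a and a median of 7 over all windows. Methylation was not measured.

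By Pearson correlation across the 6 arrays, 2 of the transcripts had a gene of the stretch as their closest match among named features. C230091D08Rik was most like Snurf (r = 0.993) and A330076H08Rik most like Ube3a (r = 0.993). D7Ertd715e was most like Pus7l (0.997), then Sgsh (0.990) and Mkrn3 (0.990). AF315352 was most like Sf3b6 (0.991), AK040434 most like Dpysl3 (0.999) and A230057D06Rik most like Duoxa1 (0.997). These are the highest among the named features of the 19203 tested, over 6 points that share the genotype difference. Between the transcripts themselves r ran from 0.18, for AF315352 with A230057D06Rik, to 0.97, for D7Ertd715e with A330076H08Rik.

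Imprinted noncoding RNAs on other chromosomes or elsewhere on chromosome 7 served as a comparison outside the duplication. Of 9 listed, 6 were measured, with a median difference of 0.11. Rian, a small nucleolar RNA host of the Dlk1 domain, differed by 0.81 ± 0.28 with an unadjusted p of 0.0252 and an adjusted p of 0.872 in limma. Mirg and Meg3 of the same domain gave 0.28 ± 0.17 and 0.21 ± 0.13, Kcnq1ot1 0.01 ± 0.08, Airn -0.24 ± 0.12 and H19 -0.36 ± 0.18. None of the last 5 reached an unadjusted p under 0.05.

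The tissue label was checked with markers. All 8 adipocyte markers were well above background on all 6 arrays, and their differences ran from -0.16 to 0.45 with none at an unadjusted p under 0.05. The neuronal markers matter here because Snhg14 is processed differently in neurons. Of 8, 4 were measured, Snap25 and Map2 were not well above background on any array, and the median difference of the 4 was 0.13. Tubb3 gave 0.10 ± 0.13, Stmn2 0.16 ± 0.12, Nefl 1.41 ± 0.80 and Rbfox3 -0.50 ± 0.12 (unadjusted p 0.00644). The mean level of the 4 ran from -3.51 to -3.01 in patDp/+ fat and from -4.05 to -3.17 in wild type fat, and its part in the noncoding transcripts was not tested. Of 6 epididymis markers only Rnase10 was measured, at -0.59 ± 0.28. Among 5 B and T cell markers, the T cell gene Cd8a was higher by 1.35 ± 0.13, without overlap (unadjusted p 4.39e-05, adjusted p 0.346 in limma), and the other 4 ran from -1.24 (the B cell gene Ms4a1) to 0.08 (Cd3e). All 4 macrophage markers were higher in mean, with a median of 0.27, and none reached an unadjusted p under 0.05. Nor did any of 5 Schwann cell markers (median -0.02) or 4 mesothelial markers (median 0.12). The part of these cells in the noncoding transcripts was not tested. Any 2 arrays correlated at 0.988 or more over the features tested, a value that cannot show whether an array stood apart. In the alternative fit with array weights, the weights ran from 0.58 for patDp/+ replicate 3 to 2.21 for wild type replicate 3.

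**Figure D4:**
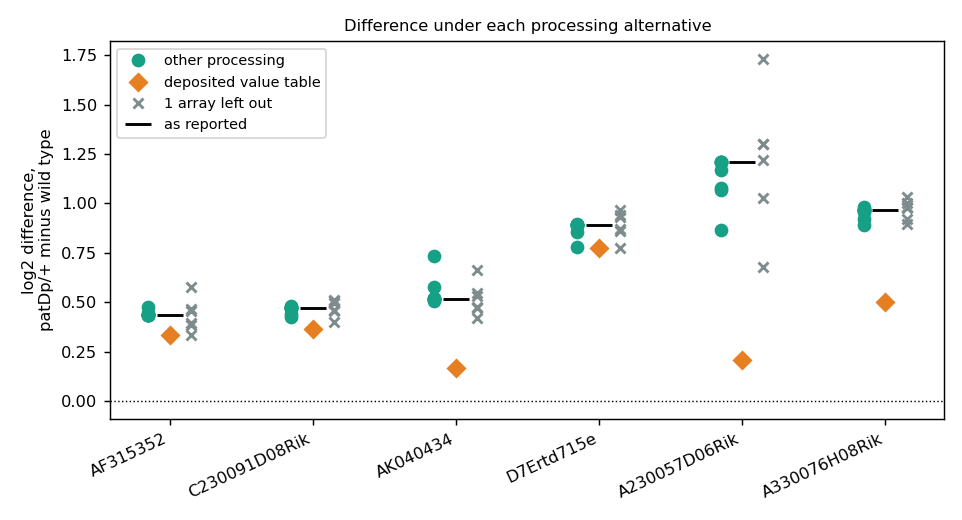
Log2 difference, patDp/+ minus wild type, of each noncoding transcript as reported (black line), under other processing (circles), in the authors' deposited value table (diamond) and with 1 array left out (crosses). Every point lies above 0, and the deposited table gives the lowest value for C230091D08Rik (0.37), AK040434 (0.17), A230057D06Rik (0.21) and A330076H08Rik (0.50).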

How the data were processed

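RNA of 6 mice was read on one-colour (Cy3) Agilent arrays. Per the file headers, Feature Extraction 9.5.1.1 gave processed intensity values (background-subtracted, not scaled between arrays), mean and background intensities, and other columns deposited by the authors as flags for outlier spots and for spots well above background. The tools limma 3.18.2 and Agilent Feature Extraction 9.5, appear in the submitters' processing notes without a role. A value table deposited by the authors holds log2 values with a column median of 7.58. Against the scanner values, every column had its highest correlation (0.950 to 0.962) with the array of its own name, and how its background was corrected is not stated in the sources at hand. It was used as an alternative.

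For each array the 75th percentile of the log2 processed intensity of non-control probes was subtracted, after outlier spots were left out. Probes well above background on at least 3 of 6 arrays were kept (27986 of 41174), with the brightest kept probe for each gene. Current gene names came through RefSeq accessions (27055 probes matched). Probe coordinates are mm9, and RefSeq sequences are GRCm38.p6. The comparison used lmFit and eBayes of limma 3.58.1 (R 4.3.3), two-sided and without covariates, with Benjamini-Hochberg adjustment over 19203 features and a threshold of 0.05. The model was tested on simulated data. An exact permutation test of 3 against 3 arrays cannot give a p below 0.1 and was not used. Gaps between a transcript and a neighbour were taken per array, with a standard error from the spread within groups. The mice were separate animals, so errors cover their spread, and the number of arrays limits the precision.

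The transcripts and gene lists were chosen with earlier results of these data known. The rule for naming covers the 6 transcripts, a list of interval genes, other features between Herc2 and Mkrn3, imprinted noncoding RNAs elsewhere, cell type markers, the 4 measured genes beyond each end and the 3 features most correlated with each transcript. Alternatives comprised background correction by normexp (offset 50), quantile and cyclic loess normalization, the deposited table, other filters and probe rules, array weights, another variance model, the slide as a block and leaving out each array. Some of the genes that the naming rule covers are not reported here.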

Additional observations from a re-analysis of the deposited data

Results flagged for a closer look

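Beside the tested features, the probe of AK030614 gave a signal well above background in some patDp/+ mice and in no wild type mouse. This probe, which lies between the probes of A230057D06Rik, was well above background on 2 patDp/+ arrays and 0 wild type arrays. It read -5.03, -5.40 and -5.15 in patDp/+ fat, against -6.05, -5.84 and -5.91 in wild type fat, and was too dim to be tested.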

How the results depend on the processing

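Every one of the 6 transcripts kept its direction under each alternative that could measure it, with C230091D08Rik at 0.37 to 0.51, D7Ertd715e at 0.77 to 0.97 and A330076H08Rik at 0.50 to 1.03, all at an unadjusted p under 0.05. AF315352 ran from 0.33 to 0.58 and missed that level without patDp/+ replicate 1 (0.38), wild type replicate 2 (0.33) or wild type replicate 3 (0.40). AK040434 ran from 0.17, in the deposited table, where it missed that level, to 0.73 with normexp. A230057D06Rik reached it with array weights (1.08), with trend and robust variance (1.21, p 0.0483) and without wild type replicate 2, ran from 0.68 to 1.73 when 1 array was left out, gave 0.21 in the deposited table, and could not be tested when all 6 arrays had to be well above background. The count of the 6 transcripts higher at that level was 4 to 6, and their median in the deposited table was 0.35. The gap between the minus-strand pair and the plus-strand transcripts stayed between 0.30 and 0.53.

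The count of all features past the adjusted threshold was 0 in limma under every alternative, with the lowest adjusted p between 0.132 and 0.889. Features lower at an unadjusted p under 0.05 numbered 303 with normexp and 892 with array weights. Those higher numbered 851 with array weights and from 290 (without patDp/+ replicate 1) to 1100 (without patDp/+ replicate 3) when 1 array was left out, and those lower from 396 to 703. Gabra5 turned to 0.34 with normexp and ran from -1.35 (without patDp/+ replicate 3) to 0.019 (without wild type replicate 3) when 1 array was left out. Gabrg3 turned to 0.56 with normexp and 0.23 without patDp/+ replicate 2, and gave -0.69 without patDp/+ replicate 3. The cause of these shifts was not tested. The slide block is the same as the replicate block and left 5 of the 6 transcripts higher, with 454 features higher and 529 lower over the array. Deviations of same-numbered arrays from their group means correlated at 0.10, -0.09 and -0.04. With so few arrays these values cannot show whether the numbers pair the mice beyond the shared slide and scan. Low signal limits A230057D06Rik, Gabra5 and Gabrg3.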
